A study of Mus musculus with 34 samples.

Results

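The 32 genes described here are targets of the tumour suppressor p53 that act outside the core apoptosis machinery. They were chosen by symbol, as the rows named Phlda3, Aen, Zmat3, Sesn1, Sesn2, Ddit4l, Btg2, Plk2, Plk3, Gdf15, Perp, Rrm2b, Xpc, Ddb2, Polk, Pltp, Ercc5, Ak1, Dcxr, Fbxw7, Slc19a2, Psrc1, Rap2b, Abhd4, Zfp365, Ephx1, Cyfip2, Pvt1, Sulf2, Triap1, Rps27l and Ier5, and each symbol stood on exactly 1 of the 47633 rows of both deposited tables. The series is bulk RNA sequencing of mouse skin at an age of 8 to 10 weeks, with 2 samples in each of 17 groups. For back skin, taken while hair was growing, there were 3 genotypes (wild type, Krt17 knockout, p53 knockout) at 0 h without irradiation and at 6 h and 24 h after 5 Gy. For footpad skin there were 2 genotypes (wild type, Krt17 knockout) without irradiation, labelled T0, and, after 40 Gy, at points labelled T3, T6 and T9 whose unit of time is not stated. No p53 knockout footpad was analysed here. The labels do not say which part of either gene was deleted, in which cells, or on which strain background.

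The values are the authors' mean FPKM of each group, that is, fragments per kilobase of transcript and scaled to the mapped fragments of the library. Single samples were not analysed here, so the spread between samples is unknown, no difference below carries a test, and sizes alone are compared. A difference is given as the log2 ratio of (mean FPKM + 1), and a gene is called 2-fold higher or lower where this ratio reaches 1 or -1, a scale that understates the change of genes with low FPKM. Levels are listed in the order 0, 6 and 24 h for back skin and T0, T3, T6 and T9 for footpad. Column totals lay between 854202 and 1095024 FPKM, and read depth is unknown. In bulk skin, fewer cells of a type and less RNA per cell cannot be told apart. Krt17 was between 14.7 and 29.9 FPKM in back skin labelled Krt17 knockout, against 1358 or more in each wild-type group, and at most 68.1 in footpad with that label, against 92.6 or more. Trp53, the gene of p53, was still measured in p53 knockout skin at 25.8, 18 and 28.8 FPKM, which cannot check that label, since the deleted stretch is not stated. The keratinocyte markers Krt5, Krt14, Krt1, Krt10, Trp63, Dsp, Dsg3, Itga6, Itgb4 and Sfn had summed levels between 3838 and 6589 FPKM in back skin and between 27600.4 and 35461 in 7 footpad groups. In wild-type footpad at T3 the sum was 14836, where Krt10 is listed at 0 and was treated as missing. The 8 neutrophil markers summed to 11.7, 222, 61.3 and 3258 FPKM in wild-type footpad and to 35.4, 279, 3101 and 339 in the knockout, with 2 of the 8, S100a8 and S100a9, which keratinocytes under stress also make, 2-fold higher at each point after irradiation, and their part in the footpad values was not tested.

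p53 is a transcription factor that DNA damage stabilises. It binds a site made of a pair of decamers close together and switches on genes that stop the cell cycle, repair DNA, restrain growth signalling and adjust metabolism, besides those that kill the cell. In skin, the growing hair follicle holds many dividing cells and is a classical site of p53 activity after ionizing radiation. Many of the genes listed here also answer to other stress signals, and several are known as p53 targets mainly from human cells.

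RefSeq promoter windows (build GRCm38.p6), which run from 250 bases before to 50 bases after a transcription start, were found for 26 of the 32 genes. The matches below are to a single decamer of the pair that p53 is known to bind. Matches to the whole pair are not given here. At least 1 exact match to the p53 decamer consensus, which reads the same on both strands, lay in a window of 8 of these 26 genes (30.8%), against 9.55% of all 27025 genes with a window. Counted per window, it was 9 of 39 (23.1%), against 8.36% of all 32851 windows. The genes differ in how many windows they have, and a match is a description of letters, not a binding site. The matches follow from 5′ to 3′ with the decamer in capitals and up to 10 bases on either side.
Ddit4l: caactcccagGGGCTTGCCTgggcccctgc
Aen: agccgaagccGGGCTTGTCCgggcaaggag
Polk: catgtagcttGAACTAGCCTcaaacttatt
Sesn1: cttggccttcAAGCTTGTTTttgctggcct
Abhd4: cgacccggcaGGGCTTGTTTactatggctg
Ier5: ccccctttaaGAGCTTGCTCcgcgggacta
Rap2b: gcgacgtactGGGCATGCTCggctggg
Rps27l: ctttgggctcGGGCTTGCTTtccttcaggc
Rps27l: gggcttgttgAGACTTGTCCgggcgacacg
With the RefSeq start of the window counted as base 1, the decamer lay at -90 to -81 in Ddit4l (chr3:137623572-137623601, plus strand), at 11 to 20 in Aen (chr7:78895927-78895956, plus strand), at -231 to -222 in Polk (chr13:96519399-96519428, minus strand) and at -173 to -164 in Sesn1 (chr10:41887256-41887285, plus strand). It lay at 2 to 11 in Abhd4 (chr14:54259274-54259303, plus strand), at -166 to -157 in Ier5 (chr1:155099783-155099812, minus strand) and at 34 to 43 in Rap2b (chr3:61364530-61364556, plus strand). Rps27l had a match at -210 to -201 (chr9:66946193-66946222, plus strand) and another at -107 to -98 (chr9:66946296-66946325, plus strand). Ddit4l, which had the largest log2 ratio of the 32 genes in each of the 6 footpad comparisons described below, is shown with all 250 bases before the RefSeq start of its window (chr3:137623422-137623671, plus strand), again with the decamer in capitals.
Ddit4l: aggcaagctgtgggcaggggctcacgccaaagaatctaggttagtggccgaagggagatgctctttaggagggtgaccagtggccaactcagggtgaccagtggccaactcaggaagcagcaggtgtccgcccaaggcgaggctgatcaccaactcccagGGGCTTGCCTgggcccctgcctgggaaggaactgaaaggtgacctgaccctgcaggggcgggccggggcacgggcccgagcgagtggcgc
These RefSeq starts need not be the first start of a gene in GENCODE. The matches of Ddit4l, Aen, Polk, Sesn1, Abhd4, Rap2b and Rps27l lie inside the GENCODE gene, downstream of its outermost start, which for Ddit4l is base 137621612 of chromosome 3. The 8 genes with a match include strong and weak responders. Ephx1 and Dcxr, which were 1.5-fold higher in both tissues of the Krt17 knockout, and Phlda3, whose larger ratios were in the footpad, had a window with no exact match in these letters.

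After irradiation, the median log2 ratio of the 32 genes lay above that of all genes in each wild-type and Krt17 knockout comparison. In the p53 knockout it lay below that of all genes at 6 h and was nearly equal to it at 24 h (0.03 and 0.04). Of the 32 genes in wild-type back skin at 6 h, 2 were at least 2-fold higher (all genes 1.78%), 9 at least 1.5-fold higher (all genes 5.06%) and 23 above 0 (all genes 33.5%), and the median log2 ratio was 0.41 for the 32 and -0.15 for all genes. At 24 h, 2 were at least 2-fold higher (all genes 2.14%), 8 at least 1.5-fold higher (all genes 5.26%) and 22 above 0 (all genes 29.7%), with medians of 0.24 and -0.20. The median of all genes was thus below 0 in this genotype. After rescaling of columns to a common median, 5 genes were 2-fold higher at 6 h and 4 at 24 h, and the medians of the 32 were 0.59 and 0.44. Those of all genes were then 0.02 and 0.02. The shares of all genes that were 2-fold higher after rescaling are not given here, so these 2 counts have no measure beside them. The 2-fold genes were Slc19a2 and Sesn1 at 6 h, and Gdf15 and Ephx1 at 24 h. Just short of 2-fold were Aen at 6 h (0.95) and Dcxr at 24 h (0.82).

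In Krt17 knockout back skin at 6 h, 9 were at least 2-fold higher (all genes 1.6%), 16 at least 1.5-fold higher (all genes 4.85%) and 28 above 0 (all genes 43.5%), and the medians were 0.55 for the 32 and -0.04 for all genes. At 24 h, 4 were at least 2-fold higher (all genes 1.64%), 10 at least 1.5-fold higher (all genes 5.09%) and 24 above 0 (all genes 37.8%), with medians of 0.35 and -0.09. In p53 knockout back skin at 6 h, 0 were at least 2-fold higher (all genes 2.11%), 3 at least 1.5-fold higher (all genes 6.23%) and 11 above 0 (all genes 52.9%), and the medians were -0.12 and 0.02. At 24 h without p53, 0 were at least 2-fold higher (all genes 0.908%), 0 at least 1.5-fold higher (all genes 2.89%) and 18 above 0 (all genes 57.8%), with medians of 0.03 and 0.04. The highest p53 knockout ratio was that of Btg2 at 6 h (0.95). Within each genotype both times are measured from the same control group.

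In wild-type footpad at T3, 9 were at least 2-fold higher (all genes 1.48%), 18 at least 1.5-fold higher (all genes 5.56%) and 30 above 0 (all genes 55%). At T6, 11 were at least 2-fold higher (all genes 2.47%), 20 at least 1.5-fold higher (all genes 9%) and 25 above 0 (all genes 56.1%). At T9 in wild type, 9 were at least 2-fold higher (all genes 3.15%), 19 at least 1.5-fold higher (all genes 8.3%) and 26 above 0 (all genes 52.3%). In Krt17 knockout footpad at T3, 15 were at least 2-fold higher (all genes 1.99%), 21 at least 1.5-fold higher (all genes 5.87%) and 30 above 0 (all genes 60.5%). At T6 in the knockout, 14 were at least 2-fold higher (all genes 4%), 20 at least 1.5-fold higher (all genes 10.1%) and 26 above 0 (all genes 49.9%), and at T9, 10 were at least 2-fold higher (all genes 2.2%), 18 at least 1.5-fold higher (all genes 8.25%) and 26 above 0 (all genes 60.6%). Median log2 ratios of the 32 genes in the footpad lay between 0.66 (wild type at T9) and 0.78 (knockout at T3), while those of all genes stayed at or below 0.09. Ddit4l and Dcxr had the largest log2 ratios at T3 in both genotypes, on the scale with 1 FPKM added. In plain FPKM, Gdf15 (42.1-fold) and Zfp365 (7.43-fold) exceeded Dcxr (5.62-fold) at T3 in the knockout, from controls below 1 FPKM.

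No gene of the 32 was 2-fold lower in any of the 12 comparisons. Of all genes, 3.17% and 3.41% were 2-fold lower at 6 h and 24 h in wild-type back skin, 1.12% and 1.14% in Krt17 knockout and 1.03% and 1.06% in p53 knockout. In the footpad the shares at T3, T6 and T9 were 1.62%, 1.34% and 1.63% in wild type and 1.14%, 2.23% and 1.75% in the knockout. All 32 genes passed the minimum of 1 FPKM in at least 1 group of each tissue, but Gdf15 in both tissues and Zfp365 in the footpad did so through irradiated groups alone.

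**Figure D1:**
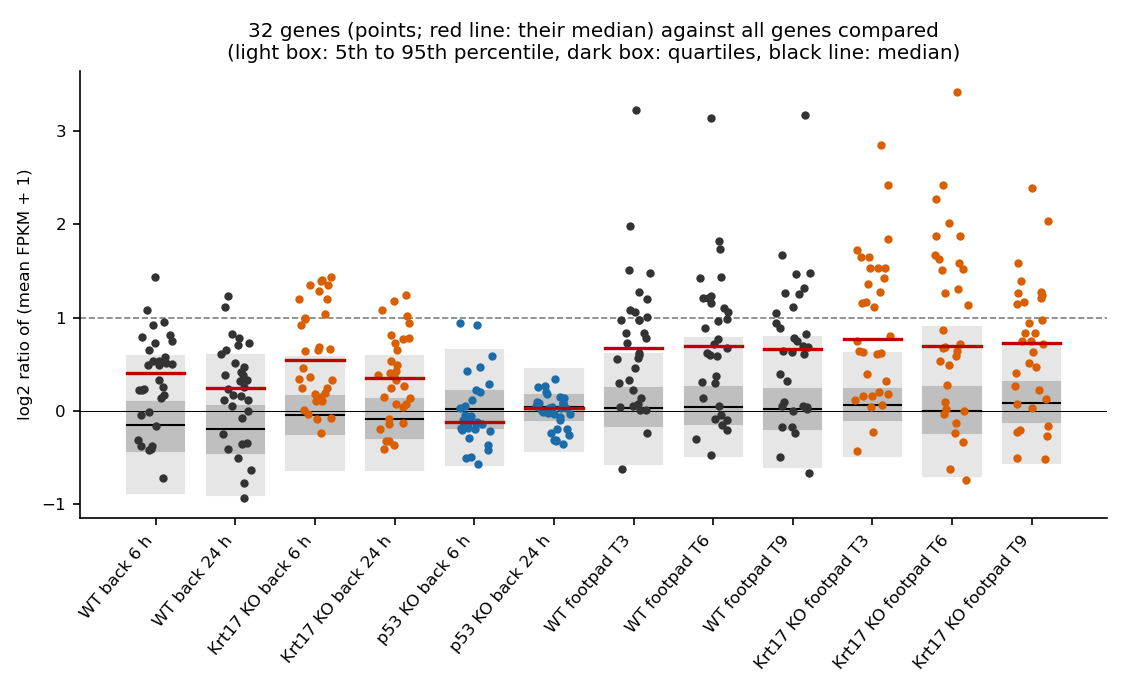
Log2 ratios of (mean FPKM + 1) of the 32 genes (points, with their median in red) in the 12 comparisons of irradiated with unirradiated skin; the x axis lists tissue, genotype and time. Grey boxes give the 5th to 95th percentile and the quartiles of all genes compared, and the dashed line marks 2-fold. The medians of the 32 genes lie above those of all genes in the 10 wild-type and Krt17 knockout comparisons. In the p53 knockout the median of the 32 genes lies below that of all genes at 6 h and nearly equals it at 24 h.

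Among the genes that restrain growth signalling, Ddit4l, an inhibitor of the growth kinase complex mTORC1 (chromosome 3, 137621612 to 137628333, plus strand, GRCm38), whose decamer is printed with the promoter matches, was almost silent in unirradiated footpad and much higher after 40 Gy. Its wild-type footpad levels were 0.913, 16.9, 15.8 and 16.2 FPKM, and those of the knockout were 1.37, 16.1, 24.4 and 11.4. All 6 irradiated footpad groups lay above both controls. In back skin it was present before irradiation, at 6.33, 9.3 and 8.14 FPKM in wild type, at 8.49, 12.1 and 19 in the Krt17 knockout and at 8.76, 5.58 and 6.64 in the p53 knockout. There the control of the p53 knockout was the highest of the 3 controls, and its irradiated groups were below it.

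Phlda3, which competes with the growth kinase Akt for membrane lipids (chromosome 1, 135766119 to 135769136, plus strand), had levels of 79.7, 161, 218 and 256 FPKM in wild-type footpad and 89.9, 232, 287 and 200.2 in the knockout. The wild-type value was highest at T9 and the knockout value at T6. In back skin Phlda3 was at 91.8, 88.8 and 123 FPKM in wild type, at 83.9, 133 and 133 in the Krt17 knockout and at 85.4, 59.9 and 102 in the p53 knockout. At 6 h its log2 ratio was therefore -0.05 in wild type, 0.66 in the Krt17 knockout and -0.50 in the p53 knockout, and no other back skin group stood as low as the p53 knockout at 6 h.

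The sestrins Sesn1 and Sesn2 both restrain mTORC1, yet they behaved differently. Sesn2 stood at 11.7, 17.1 and 15.6 FPKM in wild-type back skin, at 8.63, 21.1 and 15 in the Krt17 knockout and at 8.8, 7.64 and 8.73 in the p53 knockout. In the footpad it was at 4.89, 11.3, 11.7 and 10.3 in wild type and 3.73, 11.7, 10.7 and 10.4 in the knockout. Each irradiated group with p53 thus lay above the controls of its tissue, and the p53 knockout groups stayed between 7.64 and 8.8. Sesn1 was high at 6 h in all 3 genotypes, at 24.1, 52.2 and 15.2 FPKM in wild type, at 21.1, 33.4 and 15.7 in the Krt17 knockout and at 22.9, 44.4 and 20 in the p53 knockout. At 24 h it stood below its control in each genotype. In the footpad Sesn1 was at 28.4, 28.7, 22.9 and 19.9 in wild type and 30.2, 25.7, 19.2 and 21 in the knockout, with no irradiated group more than 0.01 above its control on the log2 scale.

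Genes of fasting and of the transcription factor FoxO stood high with Sesn1 in back skin, and Sesn1 is itself a known FoxO target. Of 12 such genes, 4 were 2-fold higher at 6 h in wild type, 4 in the Krt17 knockout and 4 in the p53 knockout, with list medians of 0.81, 0.57 and 0.74. The summed level of the list went from 174 to 463 FPKM in wild type and from 173 to 424 in the p53 knockout. In the footpad the sums lay between 121 and 191. The part of this list in the Sesn1 values was not tested.

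Gdf15, a secreted stress cytokine, was scarce throughout. In back skin it stood at 0.205, 1.08 and 1.83 FPKM in wild type, at 0.205, 2.25 and 1.73 in the Krt17 knockout and at 0.427, 0.318 and 0.197 in the p53 knockout. In the footpad it stood at 0.203, 0.823, 1.68 and 2.34 in wild type and 0.0591, 2.49, 2.04 and 1.03 in the knockout. Within each tissue, all irradiated groups with p53 lay above the controls, and in back skin above the irradiated p53 knockout, but all levels were below 3 FPKM.

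**Figure D2:**
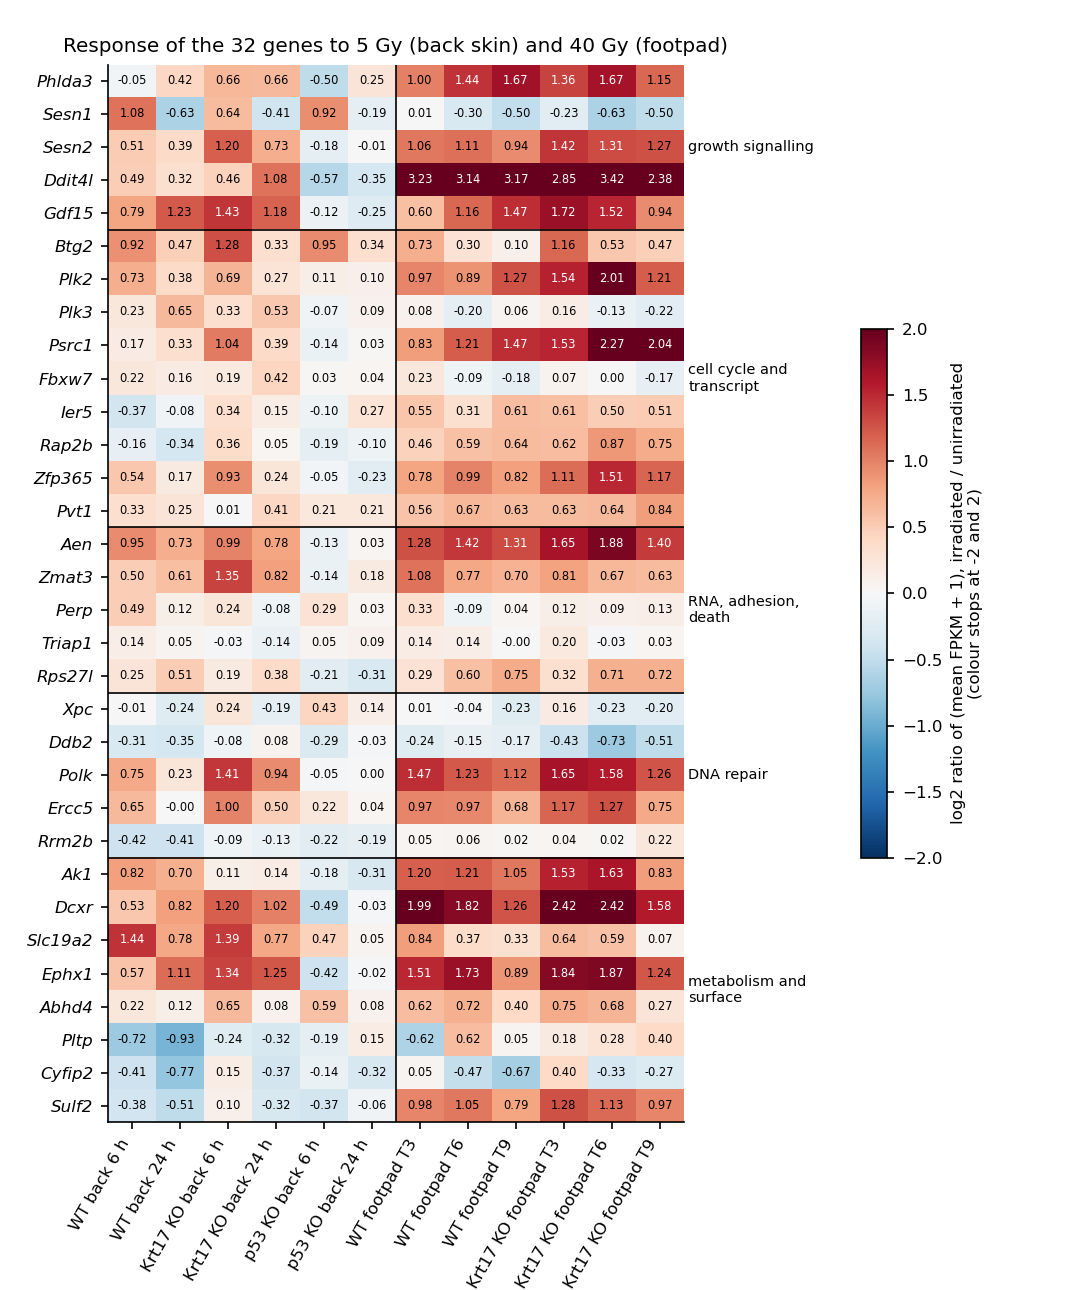
Log2 ratio of (mean FPKM + 1), irradiated over unirradiated, for each of the 32 genes (y axis, by role) in the 12 comparisons (x axis); red is higher, blue lower, and the colour stops at -2 and 2. Ddit4l reaches 3.42 in Krt17 knockout footpad at T6, whereas Triap1, Rrm2b, Xpc and Fbxw7 stay pale in every column.

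Of the 9 genes grouped under cell cycle and transcript, Btg2, an antiproliferative gene, was high at 6 h in every genotype. It stood at 34.8, 66.7 and 48.6 FPKM in wild-type back skin, at 30.7, 76 and 38.8 in the Krt17 knockout and at 27.4, 53.7 and 34.9 in the p53 knockout. The log2 ratio in the p53 knockout, 0.95, was close to the 0.92 of wild type, although its levels were the lowest of the 3 genotypes at each time. In the footpad Btg2 was highest at T3, at 31.2, 52.4, 38.5 and 33.4 FPKM in wild type and 25, 56.8, 36.6 and 35 in the knockout. Btg2 is also an immediate early gene, and the immediate early list of 12 genes had medians of 0.09, 0.49 and 0.10 at 6 h in wild type, Krt17 knockout and p53 knockout. At T3 the medians of that list were -0.63 and 0.11 in wild-type and Krt17 knockout footpad. The part of these genes in the Btg2 values was not tested.

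Plk2 and Plk3 are polo-like kinases linked to stress. Plk2 was at 23.9, 40.4 and 31.5 FPKM in wild-type back skin, at 23.3, 38.2 and 28.3 in the Krt17 knockout and at 21.6, 23.4 and 23.2 in the p53 knockout, where the 3 values hardly differed. In the footpad it reached its highest value at T9 in wild type (10.5, 21.5, 20.2 and 26.6) and at T6 in the knockout (7.46, 23.5, 33.1 and 18.6). For Plk3, back skin had the larger values. Its log2 ratios at 24 h were 0.65 and 0.53 in wild-type and Krt17 knockout back skin, and in the footpad they lay between -0.22 and 0.16. The p53 knockout had Plk3 at 42.1, 40 and 44.8 FPKM, below each wild-type group.

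Psrc1, a protein of spindle microtubules, had levels of 17.8, 32.6, 42.6 and 51.2 FPKM in wild-type footpad and 14.3, 42.9, 72.3 and 61.6 in the knockout. All irradiated values exceeded the controls, and those of the knockout exceeded those of wild type at each time after irradiation. In back skin the 6 h value of the Krt17 knockout stood out, and levels were at 31.1, 35.1 and 39.5 FPKM in wild type, at 28.3, 59.1 and 37.4 in the Krt17 knockout and at 35.6, 32.3 and 36.3 in the p53 knockout. The 14 mitosis genes had summed levels of 180.1, 64.6, 130.5 and 209 FPKM in wild-type footpad and 149, 97.1, 139 and 328 in the knockout, lowest at T3 in both, and their part in the Psrc1 values was not tested.

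Zfp365, a zinc finger gene whose human counterpart is linked to genome stability, went from 4.5 to 9.45 FPKM at 6 h in Krt17 knockout back skin and from 0.22 to 2.48 at T6 in the footpad. Rap2b, a small GTPase, Ier5, an immediate early gene, and Pvt1, a long noncoding RNA beside Myc, were higher at each footpad time, with log2 ratios between 0.31 (Ier5 at T6 in wild type) and 0.87 (Rap2b at T6 in the knockout). In back skin each of the 3 stayed below 1.5-fold in both directions in wild type and the Krt17 knockout. Fbxw7, which selects substrates for a ubiquitin ligase, had log2 ratios between -0.18 and 0.42 over the 12 comparisons.

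Among the genes of RNA handling, adhesion and death, Aen, a nuclease induced by p53 (chromosome 7, 78895854 to 78911209, plus strand), has a decamer match just inside a RefSeq start. In back skin it stood at 39.6, 77.4 and 66.2 FPKM in wild type, at 38.1, 76.7 and 66.4 in the Krt17 knockout and at 34.5, 31.4 and 35.3 in the p53 knockout. In the footpad it stood at 22.9, 57, 63.1 and 58.4 in wild type and 19.7, 63.7, 74.8 and 53.4 in the knockout. Within each tissue, every irradiated group with p53 was above every control, and in back skin the p53 knockout held the 3 lowest of the 9 values.

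Zmat3, a zinc finger protein that binds RNA and alters splicing, was at 4.31, 6.51 and 7.08 FPKM in wild-type back skin, at 2.99, 9.18 and 6.02 in the Krt17 knockout and at 2.76, 2.42 and 3.25 in the p53 knockout. Footpad levels of Zmat3 were 4.0, 9.6, 7.55 and 7.12 in wild type and 4.39, 8.43, 7.59 and 7.35 in the knockout, highest at T3 in both. Perp, a tetraspan protein of desmosomes, was the most abundant of the 32 genes by FPKM, at 1376, 1935 and 1494 in wild-type back skin and 3168, 3995, 2972 and 3259 in wild-type footpad. Its log2 ratios lay between -0.09 and 0.49, and at 6 h the p53 knockout, at 0.29, lay between the Krt17 knockout, at 0.24, and wild type. Triap1, which helps move lipids within mitochondria, had ratios between -0.14 and 0.20.

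Rps27l, a close relative of the ribosomal protein gene Rps27, was at 602, 718 and 857 FPKM in wild-type back skin and 693, 789 and 901 in the Krt17 knockout, highest at 24 h in both. In the p53 knockout the order was the opposite, with 823, 713 and 664. Footpad values were 542, 664, 823 and 910.1 in wild type and 578, 724, 948 and 950.2 in the knockout, higher at each later time. As its sequence is close to Rps27, reads of the 2 genes could have been shared, so these levels are uncertain.

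The 5 DNA repair genes split in their behaviour. Polk, a polymerase that copies past damaged bases (chromosome 13, 96480690 to 96542579, minus strand), was at 2.05, 4.13 and 2.58 FPKM in wild-type back skin, at 1.35, 5.23 and 3.5 in the Krt17 knockout and at 1.76, 1.68 and 1.77 in the p53 knockout. In the footpad it was at 1.72, 6.56, 5.37 and 4.9 in wild type and 1.64, 7.28, 6.9 and 5.32 in the knockout, and within each tissue all irradiated groups with p53 were above all controls. Ercc5, the nuclease XPG of nucleotide excision repair, stood at 9.56, 15.6 and 9.54 FPKM in wild-type back skin and 7.33, 15.6 and 10.8 in the Krt17 knockout, against 9.0, 10.6 and 9.3 in the p53 knockout. Its footpad levels were 9.58, 19.8, 19.7 and 16 in wild type and 9.5, 22.5, 24.2 and 16.7 in the knockout.

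Xpc and Ddb2, which recognise damage in nucleotide excision repair, and Rrm2b, a ribonucleotide reductase subunit, did not reach 2-fold in any comparison. Ddb2 is known as a p53 target mainly from human cells. Here it was lower in all 6 irradiated footpad groups than in both controls, at 8.35, 6.92, 7.4 and 7.29 FPKM in wild type and 9.67, 6.94, 5.41 and 6.49 in the knockout. Xpc had its highest log2 ratio, 0.43, in the p53 knockout at 6 h. Rrm2b lay between -0.42 and 0.22. Ddb2 overlaps Acp2 on the opposite strand, and because the strand setting is not given in the sources used here, reads of the 2 genes cannot be told apart. The same holds for Pltp with Ctsa, Sulf2 with Ncoa3, Plk3 with Tctex1d4, Cyfip2 with Fndc9, Polk with Gm17622, Rrm2b with Gm49085, Fbxw7 with Gm37240, Pvt1 with H2afy3, and Rap2b with Gm37696 and B430305J03Rik. Other genes overlap on the same strand, where reads could be shared under any strand setting. These are Sesn1 with 9930024M15Rik, Sesn2 with Gm12981, Ephx1 with Gm36961, Fbxw7 with Gm37726, Rrm2b with Gm3362 and Cyfip2 with Gm12568. Pvt1 overlaps Gm27913, Gm27782, Gm27718 and Gm27957 in this way.

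Among the metabolic enzymes, Ephx1 and Dcxr stood out in both tissues. Ephx1, the microsomal epoxide hydrolase (chromosome 1, 180976210 to 181020904, minus strand), stood at 36, 54.2 and 79.2 FPKM in wild-type back skin, at 35.7, 92.3 and 86.2 in the Krt17 knockout and at 26.6, 19.6 and 26.1 in the p53 knockout. In wild type it was higher at 24 h than at 6 h, and the p53 knockout was lowest at each time, before irradiation too. The footpad had 37.2, 108, 126 and 69.8 in wild type and 31.6, 116, 118 and 76 in the knockout, with T9 below T3 and T6. Dcxr, a reductase of dicarbonyls and xylulose (chromosome 11, 120725399 to 120727281, minus strand), was at 34.1, 49.7 and 61 FPKM in wild-type back skin, at 31.1, 72.6 and 63.9 in the Krt17 knockout and at 30.2, 21.2 and 29.6 in the p53 knockout. Its footpad values were 19.9, 81.9, 73 and 49 in wild type and 16.5, 92.5, 92.5 and 51.3 in the knockout, and, after Ddit4l, it had the largest log2 ratio at T3 in both genotypes.

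Slc19a2, a thiamine transporter, had the largest wild-type log2 ratio in back skin at 6 h. It stood at 6.47, 19.3 and 11.8 FPKM in wild type, at 6.83, 19.6 and 12.4 in the Krt17 knockout and at 6.82, 9.82 and 7.09 in the p53 knockout. The p53 knockout ratio at 6 h, 0.47, was smaller but not at 0. In the footpad Slc19a2 was at 16.5, 30.2, 21.6 and 20.9 in wild type and 15.7, 25, 24.1 and 16.6 in the knockout. Abhd4, a lipase of N-acyl phospholipids, had log2 ratios at 6 h of 0.22 in wild type, 0.65 in the Krt17 knockout and 0.59 in the p53 knockout, and of 0.62, 0.72 and 0.40 in wild-type footpad.

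Ak1, an adenylate kinase that is abundant in skeletal muscle, stood at 29, 51.9 and 47.8 FPKM in wild-type back skin, at 52.7, 57 and 58.2 in the Krt17 knockout and at 37, 32.5 and 29.6 in the p53 knockout. The lowest of the 9 values was thus that of the wild-type control. The summed level of 10 skeletal muscle markers was also lowest in that control, at 3139, 6968 and 5238 FPKM in wild type, at 6366, 7656 and 8072 in the Krt17 knockout and at 4949, 5932 and 4993 in the p53 knockout, and its part in the Ak1 values of back skin was not tested. In wild-type footpad Ak1 was at 7.1, 17.5, 17.7 and 15.8 FPKM while the muscle sum was at 152, 220.5, 355 and 120.2. At T9 the muscle list had a median of -0.51 and Ak1 a log2 ratio of 1.05. In Krt17 knockout footpad Ak1 was at 9.03, 28, 30 and 16.9 and the muscle sum at 312, 886, 707 and 429, both highest at T3 or T6, and the part of muscle in the footpad values was not tested either. No muscle marker was listed at 0.

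Sulf2, which trims heparan sulfate at the cell surface, was higher after irradiation in the footpad. Its levels were 7.73, 16.2, 17.1 and 14.1 FPKM in wild-type footpad and 7.72, 20.1, 18.1 and 16.1 in the knockout, with all irradiated values above both controls. In back skin it was at 41.1, 31.4 and 28.6 in wild type, at 33.2, 35.8 and 26.4 in the Krt17 knockout and at 31.2, 24 and 29.8 in the p53 knockout. The 8 fibroblast markers had medians of -0.12, 1.11 and 0.45 at T3, T6 and T9 in wild-type footpad, beside 0.98, 1.05 and 0.79 for Sulf2. In wild-type back skin the fibroblast medians were -0.66 and -1.20, beside -0.38 and -0.51 for Sulf2, and the part of fibroblasts in these values was not tested.

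Pltp, a phospholipid transfer protein, had the lowest log2 ratio of the 32 genes in wild-type back skin at both times, -0.72 and -0.93, and stood at 34.9, 20.8 and 17.8 FPKM. In the Krt17 knockout it was at 32.5, 27.4 and 25.8 and in the p53 knockout at 28.5, 24.9 and 31.7. At 6 h the adipocyte, fibroblast and macrophage lists had wild-type medians of -0.83, -0.66 and -0.55, and their part in the Pltp values was not tested. Cyfip2, part of the WAVE complex that controls actin, had ratios of -0.41 and -0.77 in wild-type back skin and of 0.05, -0.47 and -0.67 in wild-type footpad.

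**Figure D3:**
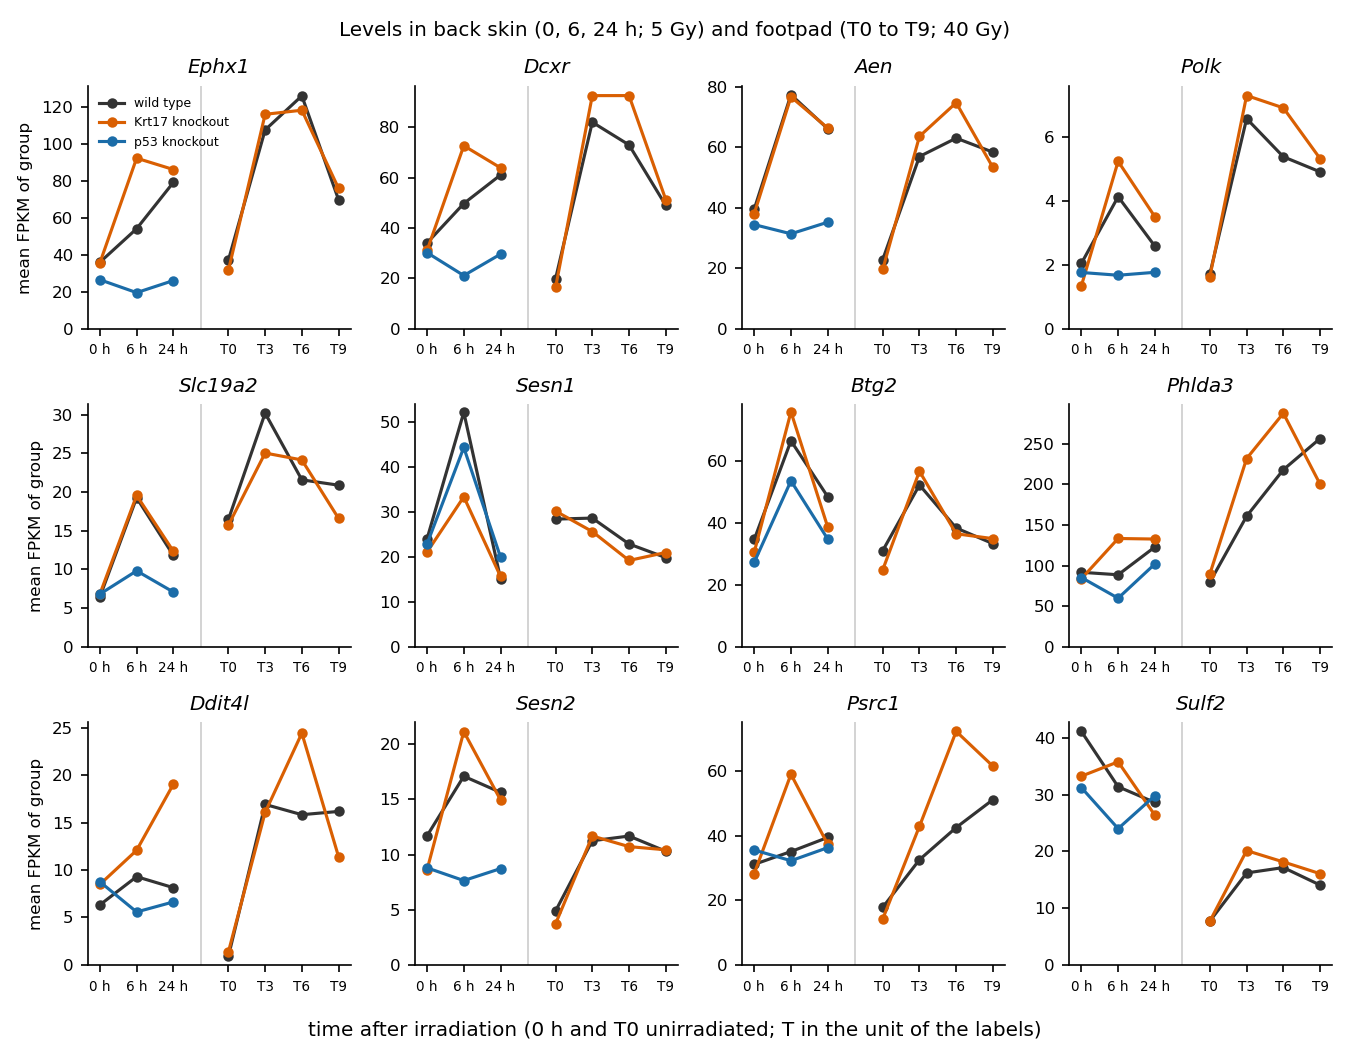
Mean FPKM of each group (y axis, starting at 0) for 12 of the genes, by time (x axis), in back skin on the left and footpad on the right of each panel; lines join the groups of a genotype, and each point is the mean of 2 samples with no error known. Aen, Dcxr, Ephx1 and Polk separate the p53 knockout from the other genotypes after irradiation, Sesn1 does not at 6 h, and Ddit4l starts near 0 in the footpad alone. Btg2 is higher at 6 h than before irradiation in each genotype, with the p53 knockout lowest.

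The responses of p53 knockout and wild-type back skin were compared. At 6 h, the log2 ratio in the p53 knockout minus that in wild type was at or below -1 for 4 of 32 genes (all genes 1.67%), namely Aen at -1.08, Ddit4l at -1.06, Dcxr at -1.03 and Ak1 at -1.0. Ddit4l went from 6.33 to 9.3 FPKM in wild type and from 8.76 to 5.58 in the p53 knockout. Dcxr went from 34.1 to 49.7 and from 30.2 to 21.2. Neither was 1.5-fold higher in wild type at 6 h, so lower values in the p53 knockout also enter these 2 differences. At 24 h the difference of log2 ratios was at or below -1 for 3 (all genes 2.76%), namely Gdf15 at -1.48, Ephx1 at -1.14 and Ak1 at -1.02. Gdf15 passed the minimum of 1 FPKM through irradiated groups alone, and its p53 knockout levels were 0.427, 0.318 and 0.197 FPKM. For Ak1 the wild-type control was the lowest back skin group, and its ratios in the Krt17 knockout were 0.11 and 0.14. Pltp was the exception in the other direction, at 1.08. Over the 32 genes the difference was above 0 for 9 at 6 h, where 68.2% of all genes were, and for 11 at 24 h, where 71% were. Each such difference is built from 4 group means. At 24 h the genes 2-fold higher in this difference were 4.8% of all genes. At the level of FPKM, 3 of 32 genes were 2-fold lower in the p53 knockout than in wild type at 24 h (all genes 1.85%), namely Ephx1, Gdf15 and Dcxr.

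In 12 of the 32 genes the lowest of the 4 irradiated wild-type and Krt17 knockout groups of back skin was above the highest of the 3 p53 knockout groups, against 4.62% of all genes. These were Sesn2, Gdf15, Plk2, Plk3, Zfp365, Aen, Zmat3, Polk, Ak1, Dcxr, Slc19a2 and Ephx1, and after rescaling of columns to a common median the number was 21, against 12.2% of all genes. Gdf15 passed the minimum of 1 FPKM in back skin through irradiated groups alone. Before irradiation, none of the 32 differed 2-fold between p53 knockout and wild type, where 1.76% of all genes did. The lowest log2 ratios there were those of Zmat3 at -0.50, Ephx1 at -0.43 and Sulf2 at -0.39, and the highest was that of Rps27l at 0.45. At 6 h, 5 genes were 2-fold lower in p53 knockout than in wild-type skin (all genes 1.12%), namely Ephx1, Aen, Dcxr, Zmat3 and Sesn2.

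In the p53 knockout itself, the log2 ratio after irradiation was above 0 for 11 of 32 genes at 6 h (all genes 52.9%). At 24 h it was above 0 for 18 (all genes 57.8%). At 6 h, 3 of 32 genes were 1.5-fold higher there, namely Sesn1, Btg2 and Abhd4, which is not far from the share of all genes, 6.23%. At 24 h there were 0, where all genes gave 2.89%. In turn 8 genes were 1.5-fold higher at 6 h in both wild type and the Krt17 knockout, namely Sesn1, Gdf15, Btg2, Plk2, Aen, Polk, Ercc5 and Slc19a2 (all genes 1.58%). Of these 8, 2, Sesn1 and Btg2, were so in the p53 knockout too (all genes 0.862%).

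**Figure D4:**
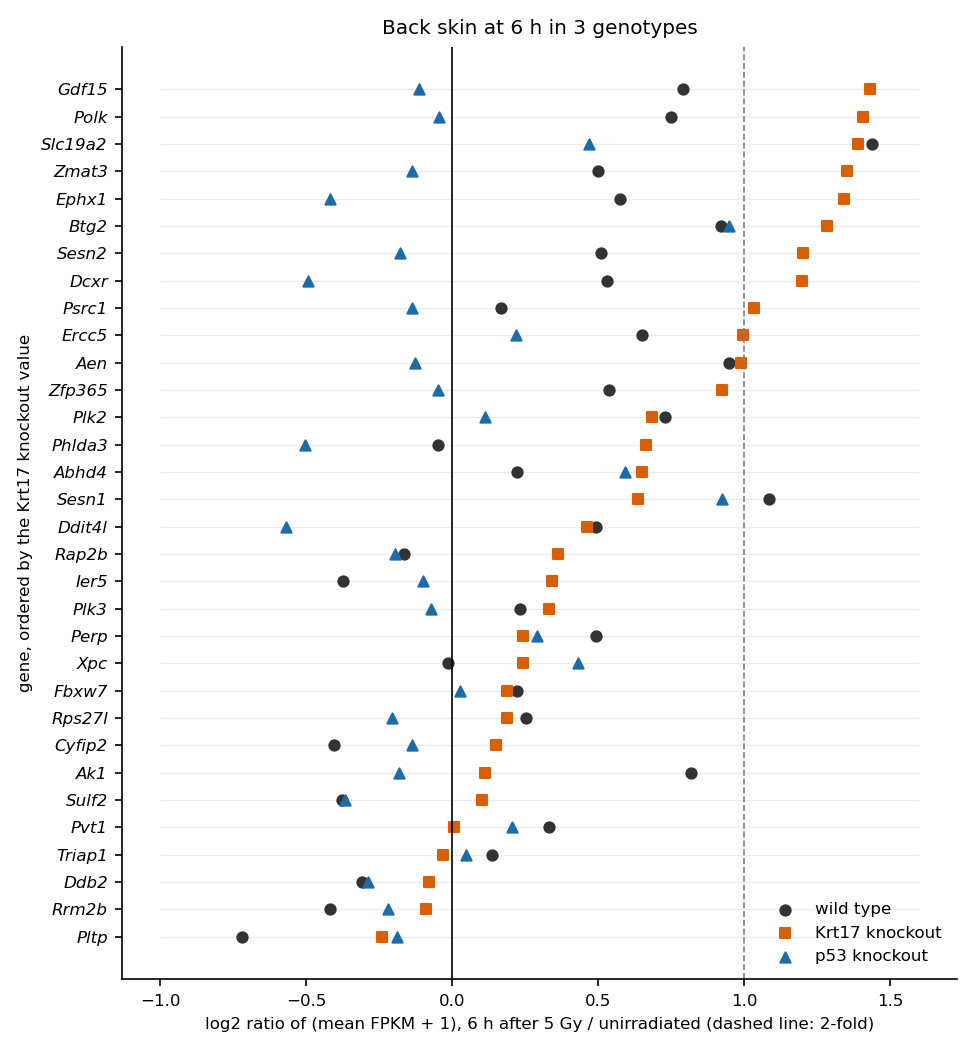
Log2 ratio of (mean FPKM + 1) at 6 h after 5 Gy over unirradiated back skin (x axis) for each of the 32 genes (y axis, ordered by the Krt17 knockout value) in wild type (circles), Krt17 knockout (squares) and p53 knockout (triangles). The p53 knockout lies at or left of 0 for most genes that the Krt17 knockout has highest, and Btg2, Sesn1, Abhd4, Slc19a2, Ercc5 and Plk2 are exceptions right of 0.

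Whether loss of Krt17 altered the response was addressed in both tissues. At 6 h in back skin, 9 of 32 genes were 2-fold higher without Krt17 (all genes 1.6%) and 2 in wild type (all genes 1.78%). The median of all genes was lower in wild type (-0.15) than in the knockout (-0.04), and the wild-type number was larger after rescaling of columns, as given above. In the Krt17 knockout alone of the 3 genotypes, 7 genes were 1.5-fold higher, namely Phlda3, Sesn2, Psrc1, Zfp365, Zmat3, Dcxr and Ephx1, against 2.68% of all genes. In wild type, Sesn2 (0.51), Zfp365 (0.54), Zmat3 (0.50), Dcxr (0.53) and Ephx1 (0.57) were higher too, but just short of this threshold. Phlda3 (-0.05) and Psrc1 (0.17) were well below it in wild type. The list after rescaling of columns is not given here. The difference of the responses themselves reached 2-fold for 0 genes (all genes 4.16%) and was 1.5-fold larger in the knockout for 9, where 12% of all genes were. The largest differences were those of Psrc1 at 0.87, Zmat3 at 0.85, Ephx1 at 0.77 and Ier5 at 0.72. For Zmat3 the knockout had the lower control, at 2.99 against 4.31 FPKM. For Ier5 the log2 ratio was -0.37 in wild type and 0.34 in the knockout, so a lower wild-type value enters this difference. The median difference was 0.35 for the 32 genes and 0.11 for all genes, and 0.21 and -0.02 after rescaling of columns. At 24 h no gene reached 2-fold (all genes 3.31%), and the medians were 0.17 and 0.10, and 0.03 and -0.04 after rescaling.

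Before irradiation, no gene of the 32 differed 2-fold between Krt17 knockout and wild type, in back skin (all genes 1.6%) or in footpad (all genes 1.42%), and Ak1 in back skin was farthest apart, at 0.84. Levels at 6 h gave no 2-fold difference between these genotypes in back skin either (all genes 2.12%), where Ephx1, at 92.3 against 54.2 FPKM, and Psrc1, at 59.1 against 35.1, differed most upward. In the footpad the response difference was above 0 for 24, 23 and 19 of 32 genes at T3, T6 and T9, where 52.4%, 43.2% and 59.4% of all genes were. It reached 2-fold for Gdf15 at T3 (1.12; all genes 3.02%) and for Plk2 (1.12) and Psrc1 (1.06) at T6 (all genes 3.5%). Gdf15 passed the minimum of 1 FPKM in footpad through irradiated groups alone, and the knockout had 0.0591 FPKM at T0 and 2.49 at T3. For Plk2 the knockout had the lower control, at 7.46 against 10.5 FPKM. At T9 no gene reached 2-fold (all genes 3.41%), and Ddit4l, Gdf15 and Phlda3 had larger ratios in wild type, with differences of -0.78, -0.53 and -0.53, so that Gdf15 differed in opposite directions at T3 and T9.

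Back skin after 5 Gy and footpad after 40 Gy differ in dose, site and time at once, so their parts cannot be told apart, and ratios were taken within each table. In wild type, 26 of 32 genes had a larger log2 ratio in footpad at T3 than in back skin at 6 h, where 65.6% of all genes did. After rescaling of columns 19 did, against 45.8% of all genes. In the Krt17 knockout the number was 23, against 62.1% of all genes. Of the wild-type genes that were 1.5-fold higher, 8 were shared by the 2 tissues (0.781% of all genes were), that is, 8 of 18 in the footpad and 8 of 9 in back skin. For all genes compared in both tissues, 103 were shared, 15.1% of the 680 in the footpad and 16.9% of the 609 in back skin. The shared ones were Gdf15, Btg2, Plk2, Aen, Polk, Ercc5, Ak1 and Slc19a2, and Sesn1 was the single gene in back skin alone (all genes 3.83%). The 10 in the footpad alone were Phlda3, Sesn2, Ddit4l, Psrc1, Zfp365, Zmat3, Dcxr, Ephx1, Abhd4 and Sulf2 (all genes 4.37%). In back skin, Sesn2 (0.51), Ddit4l (0.49), Zfp365 (0.54), Zmat3 (0.50), Dcxr (0.53) and Ephx1 (0.57) were just short of this threshold. The median of all genes there was -0.15. Phlda3 (-0.05), Psrc1 (0.17), Abhd4 (0.22) and Sulf2 (-0.38) were well below the threshold. The overlap after rescaling of columns is not given here. In the Krt17 knockout, 15 were shared (all genes 1.28%), 15 of 21 in the footpad and 15 of 16 in back skin, and 6 and 1 stood in the footpad alone and in back skin alone (all genes 4.26% and 3.13%). There, for all genes, 169 were shared, 23.1% of the 731 in the footpad and 29% of the 582 in back skin.

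**Figure D5:**
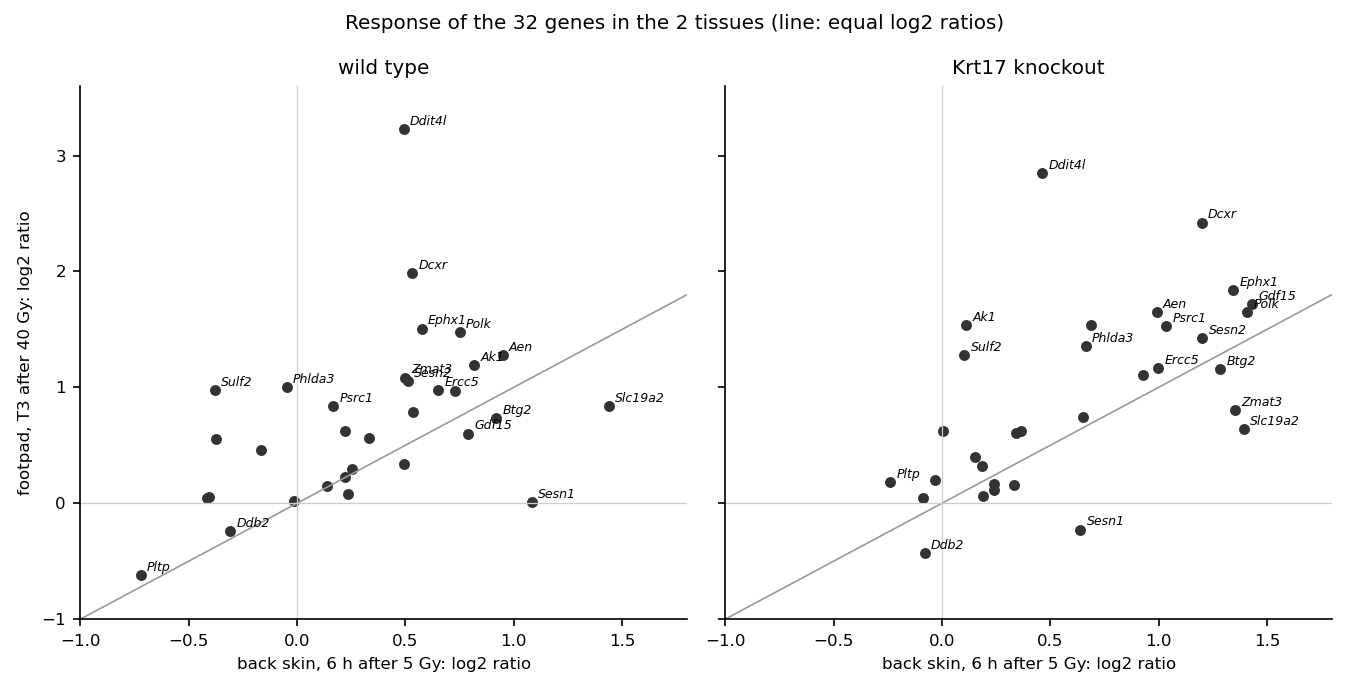
Log2 ratio of (mean FPKM + 1) of each of the 32 genes in back skin at 6 h after 5 Gy (x axis) and in footpad at T3 after 40 Gy (y axis), in wild type and Krt17 knockout; the line marks equal values. Ddit4l lies far above the line in both genotypes, Sesn1 and Slc19a2 lie below it, and Sulf2 is higher in the footpad and near or below 0 in back skin.

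Over time, in wild-type back skin 10 of 32 genes stood higher at 24 h than at 6 h (all genes 45.4%), and in the Krt17 knockout 7 did (all genes 43.6%), while 22 and 25 stood higher at 6 h. The median log2 ratios of 24 h over 6 h in wild type and Krt17 knockout were -0.12 and -0.29 beside -0.04 and -0.05 for all genes. Sesn1 was 2-fold lower at 24 h than at 6 h in each genotype, at -1.71, -1.04 and -1.11 in wild type, Krt17 knockout and p53 knockout. Genes 2-fold lower at 24 h than at 6 h numbered 1, 1 and 1 of 32, and 2.45%, 1.46% and 2.04% of all genes. In the footpad, 22 of 32 genes had all 6 irradiated groups above both controls, against 13.1% of all genes. Gdf15 and Zfp365, both among the 22, passed the minimum of 1 FPKM in footpad through irradiated groups alone. Between T3 and T9 the 32 genes had a median of -0.13 in wild type and -0.26 in the knockout. Dcxr was lowest in both, at -0.73 and -0.84, while Psrc1 was higher at T9, at 0.64 and 0.51.

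Other p53 target genes give a measure for these values. Of 13 p53 targets of apoptosis, 5, 5 and 0 were 2-fold higher at 6 h in wild-type, Krt17 knockout and p53 knockout back skin, and 5 and 7 at T3 in wild-type and Krt17 knockout footpad. Their medians were 0.79, 0.87 and 0.14 at 6 h and 0.96 and 1.29 at T3. Among them Pmaip1, which promotes cell death, had log2 ratios at 6 h of 1.75, 1.78 and 0.37, and Eda2r, a receptor of the ectodysplasin family, had 1.77 and 1.36 at T3. Fas, of the same list, stood at 2.78, 9.49 and 7.89 FPKM in wild-type back skin and 4.43, 9.39 and 4.28 in the p53 knockout. It was thus higher at 6 h without p53 too. Of 11 measured genes of p53 feedback and arrest, 2, 4 and 0 were 2-fold higher at 6 h and 2 and 4 at T3, with medians of 0.38, 0.53 and -0.01 and 0.62 and 0.84. A gene of that list, Trp53, was 2-fold lower in wild type at 6 h, at -1.14. Trp53inp1, a p53-induced stress gene, stood at 28.8, 87.4 and 36.4 FPKM in wild-type back skin and 29.4, 48.1 and 27 without p53, so that, like Sesn1 and Btg2, it was higher at 6 h without p53 as well. Mdm2, which degrades p53, had ratios of 0.38, 0.66 and -0.01 at 6 h.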

How the data were processed

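The deposited values were FPKM computed by the authors, in 2 tables, 1 for footpad and 1 for back skin, with 47633 rows and 1 mean column per group of 2 samples. TopHat2 2.1.0, Cufflinks 2.2.1 and the build mm10 appear as names, per the submitters' processing notes. The annotation, the strand setting and the way of averaging are not given in the sources used here. The depth per sample is unknown, so values have no counting error or limit. The members, the other gene lists, the fold thresholds and the alternatives were chosen with earlier results of these data known. 116 symbols on several rows were left out. Genes with at least 1 FPKM in 1 group of the tissue were compared (14972 in back skin, 13740 in footpad) by the log2 ratio of (FPKM + 1), with no test, as each group has 1 value. A listed 0 in a gene with a median of at least 5 FPKM over the other groups was treated as missing (19 and 32 values, none of a member). Names given are the 32 members, Krt17, Trp53 and, of the other lists, genes among the 3 with the largest log2 ratio in wild type at 6 h or T3, with at least 5 FPKM in 1 group. The 5 alternatives were a 1.5-fold threshold, no filter, a pseudocount of 0.1 FPKM, listed zeros kept, and scaling each column by its median ratio to the geometric mean of all columns of the tissue. Gene positions are from GENCODE M21 (GRCm38, the assembly of mm10). The code was tested on simulated data. Python 3.11.15, numpy 2.4.6, pandas 2.3.3 and matplotlib 3.10.9 were used.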

Additional observations from a re-analysis of the deposited data

How the results depend on the processing

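No paired analysis was possible because the tables hold 1 mean per group, and for the same reason the planned fits that leave out each replicate were not run. With no filter, and with listed zeros kept, the counts and ratios of the 32 genes were unchanged. With a 1.5-fold threshold, the number of higher genes was 9, 8, 16, 10, 3 and 0 in wild-type, Krt17 knockout and p53 knockout back skin at 6 h and 24 h each, 18, 20 and 19 in wild-type footpad and 21, 20 and 18 in Krt17 knockout footpad. The number whose response differed 1.5-fold was 10 and 3 for the Krt17 knockout and 12 and 9 for the p53 knockout at 6 h and 24 h, and 3, 3 and 1 in the footpad, and 1 gene differed between unirradiated Krt17 knockout and wild-type back skin. After rescaling of columns, 5 and 4 genes were 2-fold higher in wild-type back skin at 6 h and 24 h, and 7 differed 2-fold in response between p53 knockout and wild type at 24 h (4 before rescaling). With a pseudocount of 0.1 FPKM, 14 genes were 2-fold higher in wild-type footpad at T3, 3 in wild-type back skin at 6 h, and the 2-fold response differences numbered 1 for the Krt17 knockout at 6 h, 8 for the p53 knockout at 6 h, and 3 and 1 in the footpad at T6 and T9. No ratio of 2-fold or more changed sign under any of these settings. For the counts after rescaling and with the smaller pseudocount, shares of all genes are not given here. Of 384 single ratios, 18 came to pass 2-fold with the smaller pseudocount, and with rescaling 8 came to pass it and 3 no longer did. The unknown depth limits the scarce genes most, such as Gdf15, Pvt1 and footpad Zfp365.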

Other observations

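Gdf15 and Sesn2 are known to be switched on also by the integrated stress response, which slows translation under nutrient or protein stress. The 12 other genes of that response listed here had medians of -0.15, -0.01 and -0.03 at 6 h in wild-type, Krt17 knockout and p53 knockout back skin, and of 0.03 and 0.25 at T3 in wild-type and Krt17 knockout footpad. Of these 12, Ddit4 was 2-fold higher and Slc7a11, a cystine transporter, 2-fold lower in wild-type back skin at 6 h, and none was 2-fold higher in wild-type footpad at T3. Ddit4, a paralogue of Ddit4l that also restrains mTORC1, stood at 74.1, 201 and 67.5 FPKM in wild-type back skin, 74.1, 130.2 and 62.1 in the Krt17 knockout and 63.7, 107 and 54.8 in the p53 knockout. It was thus highest at 6 h in each genotype. Wild-type footpad had 43.9, 69.4, 72.9 and 50.2 FPKM, where its log2 ratio at T3 was 0.65 beside 3.23 for Ddit4l.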
